A study of Homo sapiens with 6 samples.

Results

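The genes described here are 29 genes of cholesterol synthesis and sterol regulation, measured in HK-2, an immortal cell line that was derived from the proximal tubule of the human kidney. They were chosen by name, and the Ensembl identifiers of 29 of the 29 were found among the 29483 genes of the deposited table. The list holds 20 enzymes that build cholesterol, 4 genes that control the transcription factor SREBP-2, 2 genes that move or store cholesterol, and 3 genes around the nuclear receptor LXR. The control group (HG) was kept in 25 mM high D-glucose medium for 7 days and stayed in it without TEPP-46, and the case group (HGTEPP) was kept in the same medium for 7 days and was then given TEPP-46 at 10 μM for 1 day. TEPP-46 is a small molecule that activates the pyruvate kinase PKM2. Each group had 3 replicates of this single line, with 1 dose and 1 time of treatment, and no low-glucose group was analysed here. The study calls the replicates independent, and the p-values measure the spread between these samples. The values are FPKM, the reads of a gene per kilobase of its length scaled by the number of reads of its library. The read totals behind them, recovered from the values, were 18634891, 17924033, and 17378710 in control replicates 1, 2, and 3 and 16711934, 16047243, and 15363254 in case replicates 1, 2, and 3.

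The keratins among the epithelial markers of HK-2 cells were abundant. *KRT19*, a keratin, had FPKM values between 299.8 and 384 in the 6 libraries. The 10 renal and proximal tubule markers reported here were at most 0.389 in any library. Among these 10 were the apical receptors of the proximal tubule, *LRP2*, which was listed at 0 in every library but control replicate 2 (0.00686), and *CUBN*, which was at most 0.0508. The 9 markers of leukocytes, endothelium, fibroblasts, hepatocytes, and steroid-making cells that had a row were at most 0.35 in any library. The cells therefore carried epithelial markers, while markers of differentiated proximal tubule were at or near 0. The summed FPKM of 5 epithelial markers was 924, 899, and 895.7 in control replicates 1, 2, and 3 and 901.8, 719.2, and 819.4 in case replicates 1, 2, and 3. Of the 5, *CDH1*, the epithelial cadherin, was the one that passed the test used for the sterol genes, and it was lower in the case group (log2 fold change -0.64, SE 0.11, limma adjusted p = 0.0156), from 3.345, 3.504, and 3.4 in the control to 1.831, 2.32, and 2.002 in the case replicates. Its part in the results was not tested.

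Cells build cholesterol from acetyl-CoA through mevalonate and isoprenoid diphosphates, which are joined to squalene, closed to lanosterol, and then trimmed and reduced to cholesterol. Most enzymes of this route are transcribed under SREBP-2. When the membrane of the endoplasmic reticulum is rich in sterol, INSIG proteins hold SREBP-2 and its escort SCAP there, and when sterol is low, SREBP-2 moves to the Golgi, is cut and enters the nucleus. LXR acts on the opposite side, where it is activated by oxidized sterols and raises the cholesterol exporter *ABCA1* and *MYLIP*, whose product removes lipoprotein receptors.

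In the list, 4 genes were upregulated DE genes, where DE genes are those with an adjusted p of at most 0.05 by limma over the 13599 genes tested. These were the enzymes *EBP*, *ACAT2*, and *FDFT1*, and *INSIG1*, a sensor of the SREBP-2 control step. No gene of the list was a downregulated DE gene by limma, and 3 were lower at an unadjusted p under 0.05. By voom on recovered reads 5 were upregulated and 1 (*ABCA1*) was downregulated, where 1299 and 1508 of the 13599 tested genes were. The 4 called genes are 13.8% of the list, close to the 13.2% called among all tested genes, of which 7.34% were upregulated and 5.84% downregulated. At an unadjusted p under 0.05, 10 genes of the list were higher and 3 were lower, and among all tested genes the shares were 16.8% higher and 16.2% lower, together 33.1%. The mean FPKM of at least 0.5 that was required for testing was met by 29 of the 29 genes. Since the RNA came from whole cultures, a lower share of cells with a transcript and less of it per cell cannot be told apart.

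The medians of the enzymes and of the other genes of the list lay on different sides of 0. Of the 20 synthesis enzymes, 16 had a log2 fold change (case minus control) above 0, and their median was 0.22. Of the 9 genes of regulation, transport, and efflux, 7 had a log2 fold change below 0, and their median was -0.21. The median was 0.11 over the 29 genes and 0.00 over all tested genes, of which 49.8% were above 0. The FPKM values of a library summed to 289244 to 295418 in the control group and to 310111 to 323755 in the case group. With libraries scaled to one FPKM sum (TPM), the median of all tested genes was -0.19, that of the list was -0.09, that of the enzymes was 0.02 with 7 of the 20 below 0, and that of the other genes was -0.41. Quantile normalization put the median of the list at 0.04 and that of all tested genes at 0.00. With TPM, 2 genes of the list (*EBP* and *ACAT2*) were upregulated and 4 (*SREBF2*, *SCAP*, *MYLIP*, and *PMVK*) were downregulated DE genes. Of all 13599 tested genes, 383 were upregulated and 2387 downregulated with TPM, together 20.4%. Of all DE genes, 13.8% were upregulated with TPM in place of 55.7%. The case and control values, scaled between libraries, did not overlap in 16 of the 29 genes, with 11 enzymes and *INSIG1* higher and *SREBF2*, *INSIG2*, *ABCA1*, and *MYLIP* lower in the case group. Among all tested genes 39.9% did not overlap, 19.5% with higher and 20.4% with lower case values. The enzymes without overlap were 55.0% of the 20 enzymes, and none of the enzymes had case values below all control values.

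**Figure D1:**
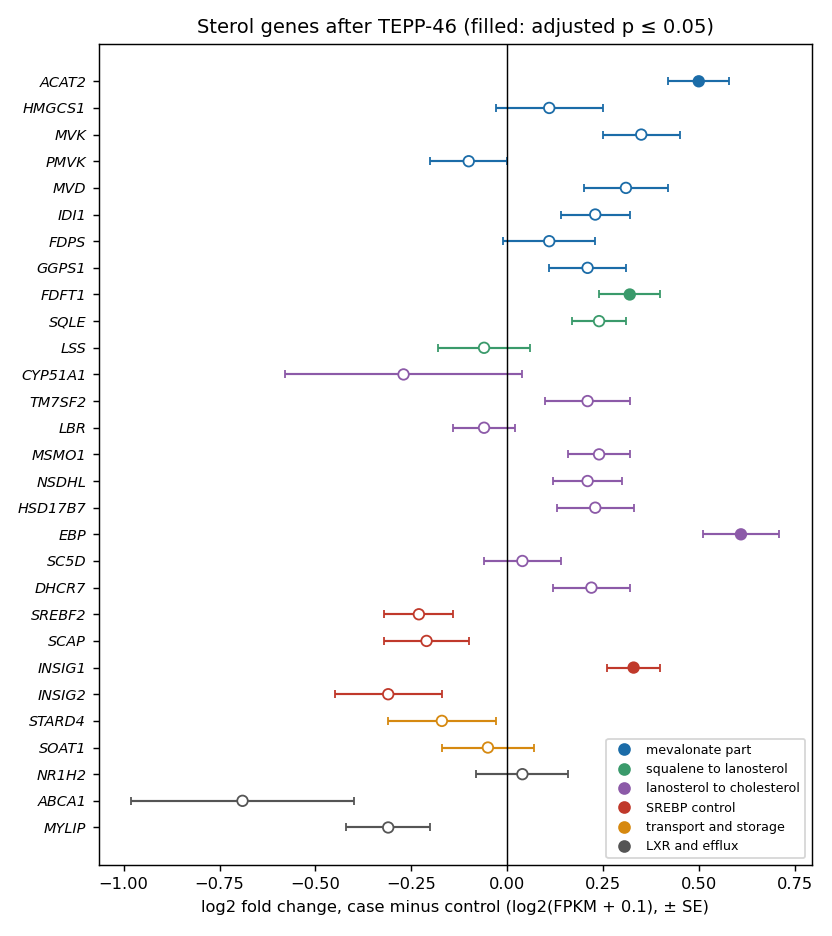
Log2 fold change of the 29 genes (x axis, case minus control on the scale of log2(FPKM + 0.1), bars are standard errors) by gene (y axis), coloured by role; filled points have an adjusted p of at most 0.05 by limma. The 4 filled points are *ACAT2* (0.50), *FDFT1* (0.32), *EBP* (0.61), and *INSIG1* (0.33), and the lowest point is *ABCA1* (-0.69). Under TPM scaling all points lie lower, and *HMGCS1*, *FDPS*, *SC5D*, and *NR1H2* change sign.

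The calls depended on the replicates. With any 1 control replicate or case replicate 3 left out, 0 genes of the list were DE genes by limma, while 72 to 176 genes were called among all tested genes. In these 4 fits the limma adjusted p was between 0.0572 and 0.0735 for *EBP* and between 0.0545 and 0.0758 for *ACAT2*. Their log2 fold changes were 0.54 to 0.62 and 0.45 to 0.51. The list had 6, 7, 6, and 9 genes higher and 0, 0, 1, and 1 lower at an unadjusted p under 0.05. These counts are without control replicate 1, 2, and 3 and case replicate 3, in this order. The share of all tested genes at this cut was not computed for these fits, so the counts have no background beside them. Without case replicate 1 the 4 called genes, *SQLE*, *IDI1*, and *GGPS1* were upregulated and *SCAP* was a downregulated DE gene. Without case replicate 2 the 4 called genes, *MVK*, *MVD*, and *NSDHL* were upregulated and *ABCA1* was downregulated. Among all tested genes, 16.7% were called without case replicate 1 and 25.4% without case replicate 2. The median of the SD between replicates over the 29 genes was, as log2, 0.05 for the control and 0.17 for the case group, against 0.09 and 0.19 over all tested genes. The 3 control replicates thus lay closer together than the 3 case replicates.

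The promoters of 3 genes are shown because these genes stand for the control step and for the enzymes. *SREBF2* encodes SREBP-2 itself, *INSIG1* encodes its sterol-dependent retention factor, and *EBP* had the largest increase among the enzymes. The sequences are those of RefSeq on GRCh38.p14, plus strand, and run from 250 bases before the start of the RefSeq transcript to the start of the first annotated exon. Capitals mark matches on either strand to the sterol regulatory element TCACNCCAC, the NF-Y box CCAAT, and the GC box GGGCGG, which can overlap each other.
SREBF2 promoter, chr22:41832855-41833104: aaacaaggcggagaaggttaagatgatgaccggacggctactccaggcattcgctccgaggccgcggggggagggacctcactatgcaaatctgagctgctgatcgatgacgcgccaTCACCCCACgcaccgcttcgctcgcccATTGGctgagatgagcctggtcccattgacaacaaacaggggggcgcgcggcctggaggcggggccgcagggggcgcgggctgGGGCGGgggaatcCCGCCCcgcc
INSIG1 promoter, chr7:155297628-155297775: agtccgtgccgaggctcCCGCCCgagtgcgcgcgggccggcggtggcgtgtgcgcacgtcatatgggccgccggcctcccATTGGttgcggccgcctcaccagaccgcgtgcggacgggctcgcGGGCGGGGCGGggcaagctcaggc
EBP promoter, chrX:48521558-48521798: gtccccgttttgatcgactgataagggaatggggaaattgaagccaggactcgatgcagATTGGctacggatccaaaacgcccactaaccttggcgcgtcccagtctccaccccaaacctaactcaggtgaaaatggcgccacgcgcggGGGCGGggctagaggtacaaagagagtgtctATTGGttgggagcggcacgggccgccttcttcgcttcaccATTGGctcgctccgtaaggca

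The *SREBF2* promoter held 1 sterol regulatory element, from -133 to -125 relative to the transcript start, with an NF-Y box from -106 to -102. The *INSIG1* sequence shown, of 148 bases, held 1 NF-Y box and 3 GC boxes, 2 of which overlap, and its whole window of 250 bases held 5 GC boxes, and the *EBP* sequence held 3 NF-Y boxes and 1 GC box. RefSeq promoters were found for 26 of the 29 genes. In the 250 bases before the first listed start, TCACNCCAC was found in 1 of the 26 and in 0.875% of the 27305 promoters of all symbols. CCAAT was found in 17 of the 26 (65.4%) and in 33.0% of all promoters. GGGCGG was found in 23 of the 26 (88.5%) and in 42.3% of all promoters. A match is a description of the letters in this window, and a window without a match says nothing of sites elsewhere or of sites with other letters.

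Among the 8 enzymes that lead from acetyl-CoA to the isoprenoid diphosphates, *ACAT2* (ENSG00000120437) was an upregulated DE gene. It encodes the cytosolic thiolase that joins acetyl-CoA units, and its gene is at chr6:159762045-159779112 (GRCh38). Its FPKM was 18.8, 19.0, and 18.7 in control replicates 1, 2, and 3 and 23.0, 25.8, and 27.2 in case replicates 1, 2, and 3. The lowest case value was above the highest control value. The log2 fold change of *ACAT2* was 0.50 (SE 0.08, limma adjusted p = 0.0137), with 1394 to 1794 reads per library. The annotation places 17.2% of its exon bases, on the opposite strand, also in *TCP1*, and reads there cannot be assigned without strand.

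The other 7 genes of this part of the pathway were not DE genes. *MVK*, the kinase that phosphorylates mevalonate, came closest, with FPKM values of 8.08, 8.38, and 7.92 in the 3 control replicates, against 10.6, 9.16, and 9.78 in the 3 case replicates. Its groups did not overlap, and its log2 fold change was 0.35 (SE 0.10, limma adjusted p = 0.0534). Over 19 alternative settings its adjusted p ran from 0.00941 to 0.238, and 5 of them called it. *MVD*, which makes isopentenyl diphosphate, had log2 values of 0.54, 0.12, and 0.27 above the control mean in case replicates 1, 2, and 3. *IDI1*, the isomerase of the next step, had 0.07, 0.27, and 0.34. In both genes the scaled case values lay above all control values, and the case replicates stood in a different order.

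*HMGCS1*, which encodes the cytosolic HMG-CoA synthase and is a well known target of SREBP-2, did not follow the group. Its FPKM was 26.4, 27.4, and 25.9 in the 3 control replicates, against 22.5, 35.3, and 25.2 in the 3 case replicates. Case replicate 2 was the highest of the 6 libraries, and case replicate 1 was the lowest. The log2 fold change was 0.11 with a 95% confidence interval from -0.21 to 0.43 and was -0.09 with TPM. An opposite-strand transcript shares 37.7% of its exon bases. A same-strand gene model, which had no row in the deposited table, shares 37.3% of those of *GGPS1*. The log2 fold changes of *FDPS*, which makes farnesyl diphosphate, and *GGPS1*, which makes geranylgeranyl diphosphate, were 0.11 and 0.21, and that of *PMVK*, the phosphomevalonate kinase, was -0.10.

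The 3 enzymes from farnesyl diphosphate to lanosterol included the DE gene *FDFT1* (ENSG00000079459), which encodes squalene synthase, the first enzyme given over to sterols. Its FPKM was 104.1, 106.0, and 105.7 in the 3 control replicates, against 130.3, 121.8, and 122.2 in the 3 case replicates. All case values exceeded all control values. The difference was 0.32 on the log2 scale (SE 0.08, limma adjusted p = 0.0357), and it was 0.12 with TPM and 0.14 with quantile normalization, where *FDFT1* was not a DE gene. *FDFT1* also lost its call with no filter on low values (adjusted p = 0.083), with no intensity trend (0.0751), and when the replicate number was a block (0.0582), all by limma, with log2 fold changes of 0.34, 0.32, and 0.32.

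*SQLE*, the squalene epoxidase, a rate-limiting enzyme of the route, had FPKM values of 23.3, 24.4, and 24.1 in the 3 control replicates, against 24.8, 28.9, and 26.9 in the 3 case replicates. Its values did not overlap, and the difference of 0.24 (standard error 0.07) had an adjusted p of 0.0645 by limma. *LSS*, which closes the ring to lanosterol, had a log2 fold change of -0.06 (95% confidence interval -0.33 to 0.21). Its FPKM was 23.2 in case replicate 3 and between 28.02 and 30.57 in the other 5 libraries.

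Of the 9 enzymes from lanosterol to cholesterol, *EBP* (ENSG00000147155) was the DE gene, with the largest increase of the 29 genes. It encodes the sterol isomerase that shifts the ring double bond, at chrX:48521799-48528716. The FPKM of *EBP* was 41.3, 41.6, and 39.5 in the 3 control replicates, against 58.7, 53.6, and 65.4 in the 3 case replicates. The lowest case replicate was above every control replicate by more than the range of the controls. *EBP* rose by a log2 fold change of 0.61 (SE 0.10, limma adjusted p = 0.014), or 1.53-fold, on 1655 to 2421 reads per library. It ran from 0.41 to 0.70 over the 19 alternatives, with the lowest value under TPM, and 15 of them called it. A protein-coding gene model on the same strand, ENSG00000286268, shares 36.4% of its exon bases and had no row in the deposited table.

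The other enzymes of this segment gave smaller differences, none of which passed the threshold. *MSMO1*, the C4-methyl oxidase, *NSDHL*, the dehydrogenase that acts after it, and *HSD17B7*, the reductase of the same step, had log2 fold changes of 0.24, 0.21, and 0.23. *DHCR7* and *TM7SF2*, both sterol reductases, had 0.22 and 0.21. The scaled values of *MSMO1*, *NSDHL*, *HSD17B7*, and *DHCR7* did not overlap between the groups, and those of *TM7SF2* did. *SC5D*, a desaturase of the late steps, had 0.04 (95% confidence interval -0.20 to 0.28), and *LBR*, a reductase that is also a protein of the nuclear lamina, had -0.06 (-0.25 to 0.13).

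*CYP51A1*, the lanosterol demethylase, was covered by only 37 to 117 reads per library. Its FPKM was 1.54, 1.05, and 1.33 in the 3 control replicates, against 1.16, 1.44, and 0.591 in the 3 case replicates. The groups overlapped, and the 95% confidence interval of the log2 fold change, from -0.97 to 0.44, was the widest of the enzymes. The annotation used here places 68.2% and 67.8% of its exon bases also in other protein-coding gene models on the same strand. Neither model had a row in the deposited table. How reads shared with those models were counted is not given in the sources used here, so the level of *CYP51A1* is uncertain.

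**Figure D2:**
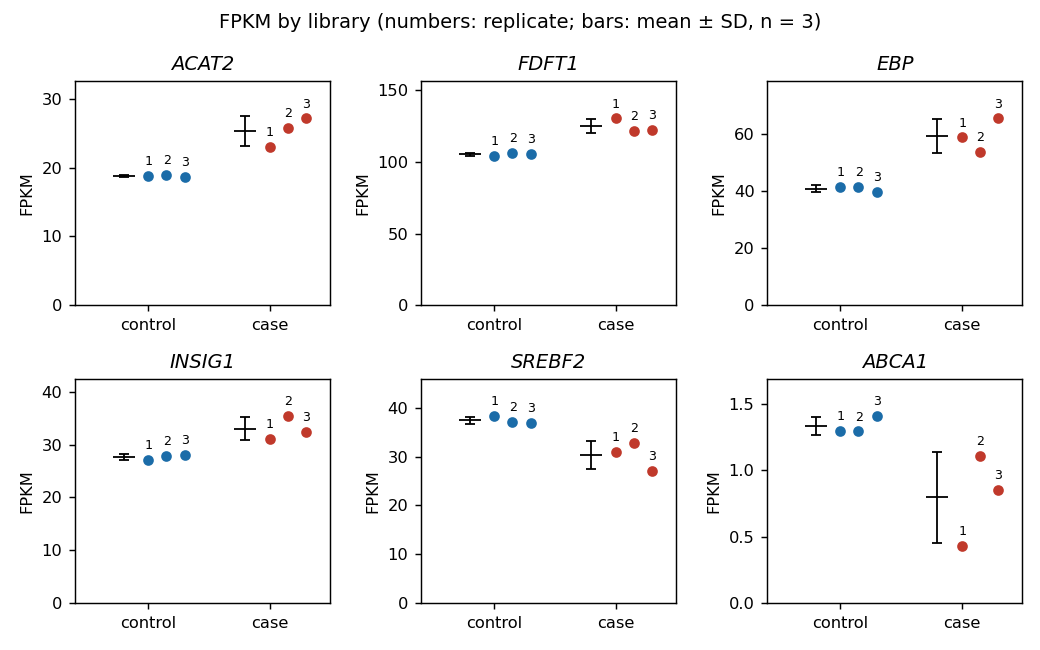
FPKM as deposited (y axis, from 0) of 6 genes in the control and case groups (x axis). Points are libraries numbered by replicate, and the bars beside them give the mean and SD of 3 replicates. *ACAT2*, *FDFT1*, *EBP*, and *INSIG1* were higher in every case replicate, and *SREBF2* and *ABCA1* were lower in every case replicate, with *ABCA1* spread from 0.427 to 1.11 in the case group.

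On the side of control, *INSIG1* (ENSG00000186480) was an upregulated DE gene and the other 3 genes had log2 fold changes below 0. *INSIG1* is at chr7:155297776-155310235, and its transcription is itself raised by SREBP-2. Its FPKM was 27.1, 27.8, and 28.1 in the 3 control replicates, against 31.1, 35.4, and 32.4 in the 3 case replicates. The values did not overlap, and relative to the control mean the 3 case replicates were 0.30, 0.38, and 0.30 higher on the log2 scale. *INSIG1* had a log2 fold change of 0.33 (SE 0.07, limma adjusted p = 0.0263). It fell to 0.25 with FPKM unscaled, 0.22 with quantile normalization, and 0.13 with TPM, where *INSIG1* was not a DE gene. With no intensity trend it also lost its call (limma adjusted p = 0.0593), at a log2 fold change of 0.33.

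*SREBF2*, which encodes SREBP-2, had FPKM values of 38.3, 37.2, and 36.9 in the 3 control replicates, against 31.0, 32.82, and 27.1 in the 3 case replicates. Each case value was below each control value. *SREBF2* had a log2 fold change of -0.23 (SE 0.09, limma adjusted p = 0.114), and it was a downregulated DE gene with TPM (-0.43, adjusted p = 0.0207) and with quantile normalization (-0.34, adjusted p = 0.0434), in a range from 0.0207 to 0.292 over the 19 alternatives. *SCAP*, the escort of SREBP-2, had FPKM values of 17.0, 15.9, and 15.5 in the 3 control replicates, against 15, 12.86, and 11.87 in the 3 case replicates. After scaling, case replicate 1 of *SCAP* lay among the controls, 0.03 above their mean, and the log2 fold change was -0.21 (SE 0.11, limma adjusted p = 0.232). *SCAP* was a downregulated DE gene without case replicate 1 (-0.33, limma adjusted p = 0.0311) and with TPM (-0.41, limma adjusted p = 0.0298), and its adjusted p ran up to 0.502 over the 19 alternatives.

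*INSIG2*, the second retention factor, had FPKM values of 5.149, 4.732, and 4.603 in the 3 control replicates, against 2.83, 4.32, and 4.05 in the 3 case replicates. All case values were lower, and case replicate 1 was lower than the other 2. The log2 fold change of *INSIG2* was -0.31 (SE 0.14, limma adjusted p = 0.178), and it was -0.15 without case replicate 1 and -0.19 with GC correction. The 2 INSIG genes thus had differences of opposite sign, of which that of *INSIG1* passed the test.

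*STARD4*, which carries cholesterol between membranes, and *SOAT1*, which esterifies it for storage, were not DE genes. The FPKM of *STARD4* was 4.63, 5.39, and 5.65 in the 3 control replicates, against 3.485, 5.197, and 4.581 in the 3 case replicates. The FPKM of *SOAT1* was 9.73, 9.83, and 9.86 in the 3 control replicates, against 7.47, 11.0, and 8.80 in the 3 case replicates. Both genes overlapped between the groups, with case replicate 1 the lowest and case replicate 2 the highest of the case group. Their log2 fold changes were -0.17 (95% confidence interval -0.50 to 0.15) and -0.05 (-0.32 to 0.23).

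*ABCA1*, the exporter of cholesterol and a target of LXR, had the lowest log2 fold change of the list. Its FPKM was 1.30, 1.29, and 1.41 in the 3 control replicates, against 0.427, 1.11, and 0.855 in the 3 case replicates, on 81 to 278 reads. All case values were below all control values, and the case replicates differed from each other by more than the control replicates did. *ABCA1* had a log2 fold change of -0.69 (SE 0.29, limma adjusted p = 0.139), with a 95% confidence interval from -1.35 to -0.03. It was a downregulated DE gene with voom on recovered reads (-0.77, adjusted p = 0.0332) and without case replicate 2 (-0.93, adjusted p = 0.0492 by limma), and the adjusted p reached 0.292 over the 19 alternatives. Without case replicate 1, the log2 fold change was -0.37, and with a pseudocount of 1 in place of 0.1 it was -0.36.

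*MYLIP*, the other LXR target, had FPKM values of 4.30, 4.78, and 4.06 in the 3 control replicates, against 2.86, 3.62, and 3.56 in the 3 case replicates. The groups did not overlap, and the log2 fold change was -0.31 (SE 0.11, limma adjusted p = 0.106). With TPM it was a downregulated DE gene (-0.50, limma adjusted p = 0.0393), and its adjusted p ran up to 0.329 over the alternatives. *NR1H2*, which encodes LXR-beta, had a log2 fold change of 0.04 (95% confidence interval -0.24 to 0.31). Its groups overlapped, and 22.1% of its exon bases are shared with *NAPSA* on the opposite strand.

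**Figure D3:**
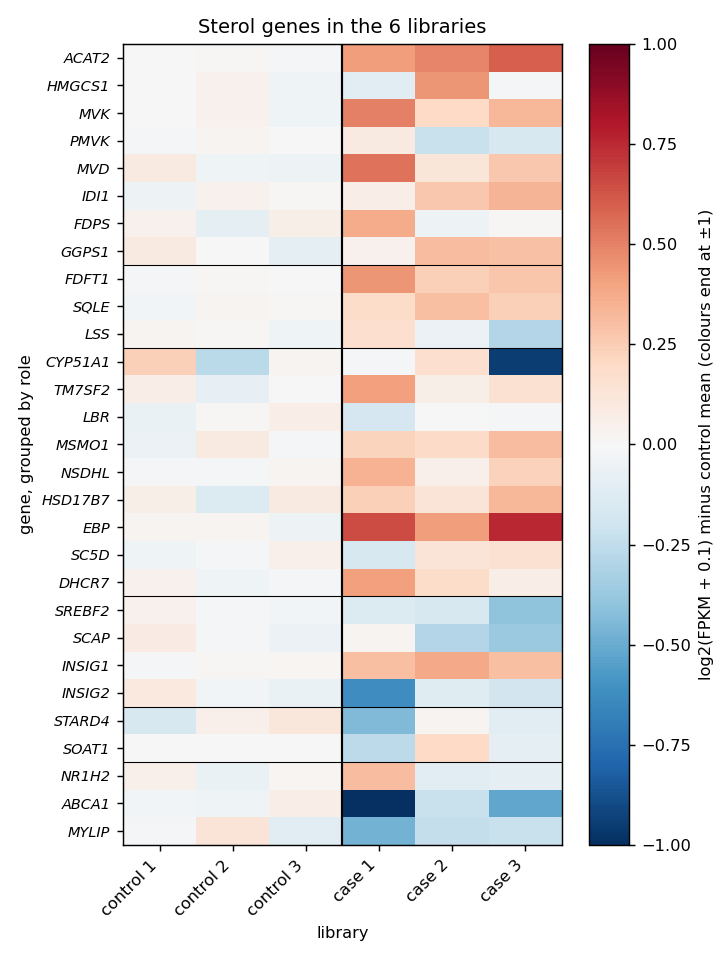
Scaled log2(FPKM + 0.1) of the 29 genes (y axis, grouped by role) in the 6 libraries (x axis), as the difference from the mean of the control replicates; red is higher, blue is lower, and colours end at a difference of 1 in either direction. The median over the 20 synthesis enzymes was 0.23, 0.18, and 0.23 in case replicates 1, 2, and 3, and single genes such as *HMGCS1*, *FDPS*, and *NR1H2* changed sign between case replicates.

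Per kilobase of gene, the highest levels of the list in the control group were those of *FDFT1* (105.3 ± 1.03 FPKM, SD, n = 3) and *DHCR7* (104.9 ± 2.74 FPKM, SD, n = 3), which did not differ beyond their spread. *PMVK* (54.4 ± 1.04 FPKM, SD, n = 3) and *FDPS* (50.05 ± 3.02 FPKM, SD, n = 3) followed. The lowest levels were those of *ABCA1* (1.33 ± 0.0653 FPKM, SD, n = 3) and *CYP51A1* (1.31 ± 0.244 FPKM, SD, n = 3), the latter uncertain because of the exon bases it shares. In the case group the level of *FDFT1* was 124.8 ± 4.81 FPKM and that of *DHCR7* was 116.2 ± 11.2 FPKM (SD, n = 3), where *DHCR7* ran from 104.8 to 127.1.

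The difference between case replicates 1 and 2 followed the GC content of the transcripts. Across the 29 genes, the difference between case replicates 1 and 2 had a Pearson r of 0.73 and a Spearman rho of 0.83 with GC content, and across 13489 tested genes 0.37 and 0.55. Between case replicates 3 and 2 the values were lower, 0.23 and 0.26 across the 29 genes and 0.05 and 0.11 across the tested genes. These are descriptions across genes that share the same libraries. *MVD* (GC content 63.7%) was 0.42 higher in case replicate 1 than in case replicate 2 on the log2 scale, and *FDPS* (56.0%) was 0.43 higher. *HMGCS1* (39.0%) was 0.55 lower and *INSIG2* (36.3%) was 0.50 lower in case replicate 1. *ABCA1* (45.5%), with a difference of -1.12, lay away from the other genes. The log2 fold change between the groups itself had a Pearson r of 0.13 with GC content over the 29 genes.

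**Figure D4:**
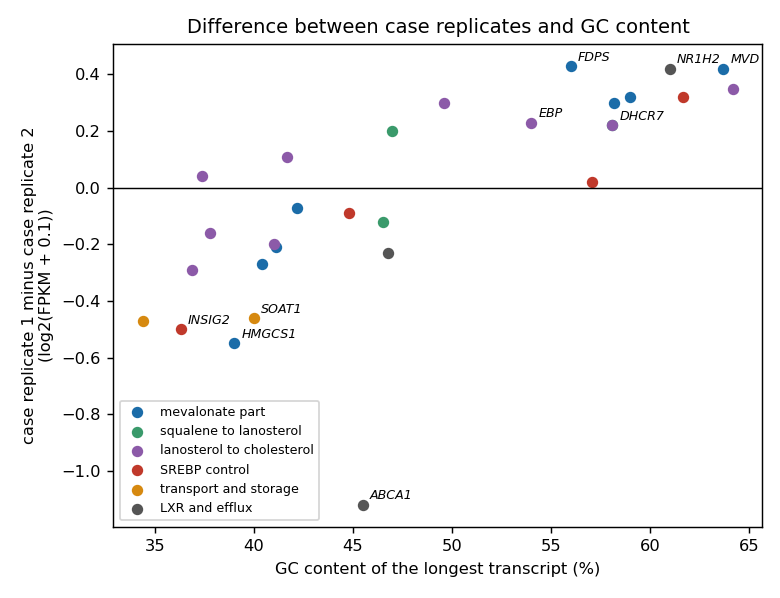
Difference between case replicates 1 and 2 (y axis, log2(FPKM + 0.1)) against the GC content of the longest transcript (x axis, percent) for the 29 genes, coloured by role. Genes of low GC content such as *INSIG2* and *HMGCS1* lie below 0 and genes of high GC content such as *MVD* and *NR1H2* lie above 0.

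With each library corrected for GC content, 12 genes of the list were upregulated DE genes, 41.4% of the 29 genes, where 14.3% of all tested genes were upregulated. The 12 were the 4 genes named above together with *MVK*, *MVD*, *IDI1*, *GGPS1*, *SQLE*, *MSMO1*, *TM7SF2*, and *DHCR7*. Of the list 0 were downregulated DE genes, beside 1344 of the 13599 tested genes. At an unadjusted p under 0.05, 15 genes of the list were higher and 4 lower. The share of all tested genes at that cut was not computed with the correction. With the correction and the replicate block together, 10 genes of the list were upregulated, beside 1706 of the 13599 tested genes. *MVK* went from 0.35 to 0.38 (adjusted p = 0.00941 by limma), *MVD* from 0.31 to 0.35 (adjusted p = 0.00947), and *EBP* stayed at 0.61 (adjusted p = 0.00493). The median of the list was 0.16 above that of all tested genes after the correction and 0.11 before it.

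**Figure D5:**
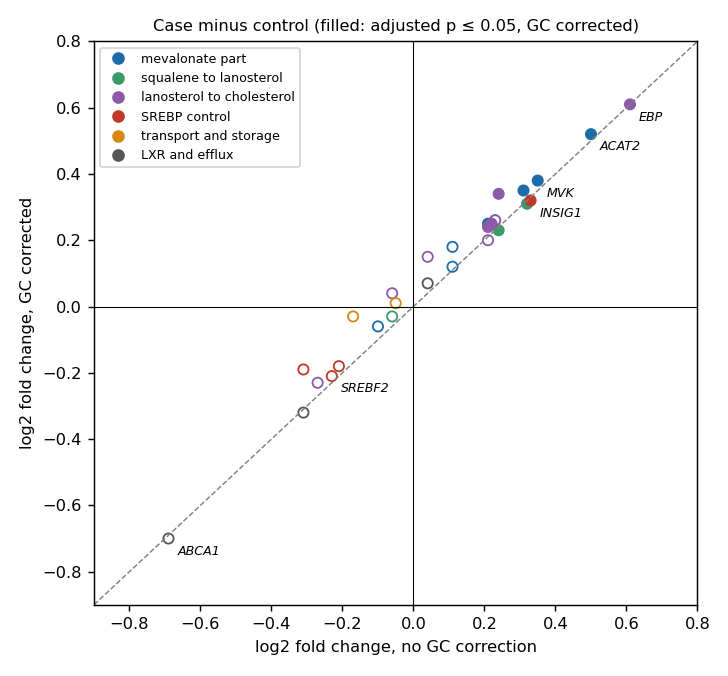
Log2 fold change (case minus control) of the 29 genes after GC correction of each library (y axis) against that without it (x axis); the dashed line marks equality, and filled points have an adjusted p of at most 0.05 by limma after the correction. The 12 filled points all lie above 0, and most genes lie on or slightly above the line.

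The isoprenoid diphosphates made along the way also feed other products, and 16 genes of these branches were followed. Of these, 2 were upregulated DE genes and 0 were downregulated by limma. The 2 called genes are 12.5% of the 16, beside the 13.2% called among all tested genes. At an unadjusted p under 0.05, 3 were higher and 3 lower, where 16.8% of all tested genes were higher and 16.2% lower. By voom 3 were upregulated and 2 downregulated, where 1299 and 1508 of the 13599 tested genes were. The median log2 fold change was 0.09. *COQ2*, which attaches the side chain of ubiquinone, had FPKM values of 7.87, 9.25, and 9.21 in the 3 control replicates, against 12.99, 10.85, and 13.02 in the 3 case replicates (log2 fold change 0.56, SE 0.12, limma adjusted p = 0.0256). *FNTA*, a subunit of protein prenyltransferases, had 3.79, 3.77, and 3.64 in the 3 control replicates, against 4.51, 4.71, and 5.91 in the 3 case replicates (0.49, SE 0.12, limma adjusted p = 0.0347). Both genes were higher in every case replicate. Neither was a DE gene without any 1 control replicate or case replicate 3.

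Of 34 further genes of sterol handling, 33 had a row in the table and 27 passed the filter on low values, and 4 were upregulated and 1 was a downregulated DE gene, with a median log2 fold change of -0.01. The 5 called genes are 18.5% of the 27, beside 13.2% of all tested genes. At an unadjusted p under 0.05 there were 5 higher and 6 lower, where 16.8% of all tested genes were higher and 16.2% lower. *GRAMD1B*, which carries cholesterol from the plasma membrane to the endoplasmic reticulum, was the downregulated gene. Its FPKM was 35.8, 37.6, and 36.6 in the 3 control replicates, against 23.2, 28.2, and 22.8 in the 3 case replicates. All case replicates were lower, and the log2 fold change was -0.50 (SE 0.09, limma adjusted p = 0.0171).

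*NPC2*, which hands cholesterol out of the lysosome, had FPKM values of 48.0, 46.3, and 47.8 in the 3 control replicates, against 57.6, 53.5, and 60.9 in the 3 case replicates (log2 fold change 0.35, SE 0.08, limma adjusted p = 0.035). *VLDLR*, a lipoprotein receptor, had 3.25, 3.31, and 3.23 in the 3 control replicates, against 3.59, 4.81, and 4.70 in the 3 case replicates (0.47, SE 0.12, limma adjusted p = 0.0366). In both genes every case value exceeded every control value. The other upregulated DE genes were *ACAT1*, the mitochondrial thiolase (0.41, limma adjusted p = 0.0248), and *RNF139*, a ubiquitin ligase of the endoplasmic reticulum (0.38, limma adjusted p = 0.0464). With the replicate number as a block, *RNF139* lost its call (limma adjusted p = 0.0597) at a log2 fold change of 0.38. Of the 19 alternatives, 9 called *RNF139*. None of the 5 was a DE gene without any 1 control replicate or case replicate 3, and with TPM the list had 0 upregulated and 8 downregulated DE genes, where 383 of all 13599 tested genes were upregulated and 2387 downregulated.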

How the data were processed

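The authors used HISAT2 2.1.0 with GRCh38.p13 for alignment after removal of poor reads and HTSeq 0.6.0 for gene counts, and deposited FPKM values of 29483 genes in 6 libraries. Strandedness and annotation version are not given in the sources used here. Whole reads were recovered, within 0.02 reads, for the 27922 genes above 0, for 12939 with their exon length in GENCODE 44 and for 14983 from the FPKM values alone (100.0% whole), and gave the depth of each library, which limits precision for genes of few reads.

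Each library was scaled by its median-of-ratios factor (0.939 to 1.031), and log2(FPKM + 0.1) was used. The test took in the genes whose mean FPKM reached 0.5 and was run in R 4.3.3 with limma 3.58.1 (intensity trend, no covariates), with Benjamini-Hochberg adjustment over all tested genes. Alternatives are listed in the closing section, and GC content was corrected by a lowess curve per library on the longest transcript. A count test was not the main test, as the values are FPKM. The rule for single genes took the 29 genes and every DE gene of the other lists. The members and lists were chosen with earlier results of these data known. A gene of the marker lists is not reported here.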

Additional observations from a re-analysis of the deposited data

How the results depend on the processing

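In each of these lists the counts are of DE genes by limma (voom belongs to limma). Testing every gene above 0 gave 347 upregulated and 177 downregulated among all genes, 0 upregulated in the isoprenoid list and 1 in the sterol handling list. With FPKM unscaled there were 662 upregulated genes, 1 and 1 (up and down) in the isoprenoid list, 2 upregulated in the sterol handling list, and a median of 0.03 over the 29 sterol genes, with *SC5D* at -0.03 and *NR1H2* at -0.04. With TPM there were 383 upregulated and 2387 downregulated genes, 2 and 4 sterol genes, 1 and 1 isoprenoid genes, and 0 and 8 sterol handling genes, the sterol median was -0.09, and *HMGCS1* and *FDPS* were at -0.09 and *SC5D* and *NR1H2* at -0.16. Quantile normalization gave 2 and 1 sterol genes, 2 upregulated sterol handling genes, a sterol median of 0.04, *FDPS* at -0.02 and *NR1H2* at -0.08. Without the intensity trend there were 433 and 414 genes, 2 sterol genes and 0 isoprenoid and 0 sterol handling genes upregulated. Voom on recovered reads gave 1508 downregulated genes, of which 1 was a sterol, 2 were isoprenoid and 4 were sterol handling genes. With GC correction there were 1949 and 1344 genes, 12 upregulated sterol genes, 1 downregulated isoprenoid and 3 downregulated sterol handling genes, a sterol median of 0.18, *LBR* at 0.04 and *SOAT1* at 0.01. Adding the replicate block to the GC correction gave 1706 upregulated genes, 10 upregulated sterol genes, 2 downregulated sterol handling genes, a sterol median of 0.18, *LBR* at 0.04 and *SOAT1* at 0.01. The cause of these changes was not tested.

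Leaving out each replicate in turn gave 56 to 1797 upregulated and 16 to 1655 downregulated genes, 0 to 7 upregulated and 0 to 1 downregulated sterol genes, 0 to 3 and 0 to 2 isoprenoid genes, 0 to 5 and 0 to 4 sterol handling genes, and a sterol median of 0.13 to 0.17. Single genes that changed sign were *NR1H2* (from -0.10 to 0.11), *FDPS* (-0.02 to 0.19), *SOAT1* (-0.17 to 0.06), *HMGCS1* (-0.06 to 0.22), *SC5D* (-0.01 to 0.15), *LSS* (-0.17 to 0.05), and *CYP51A1* (-0.49 to 0.07), none of them called in any of these fits.

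Same-numbered replicates of the groups had correlations of 0.06, 0.10, and -0.05 between their deviations from the group means. Differently numbered replicates had -0.18 to 0.12. With 3 replicates a group, these values cannot decide whether the numbers pair the samples. With the replicate block alone there were 848 upregulated and 762 downregulated genes and 3 upregulated sterol genes, and not every sample correlated best with its own number. Pseudocounts of 1 and 0.01, a mean FPKM of at least 1, and robust estimation kept the counts in every list within 1.5 times. Among the 29 sterol genes, depth limits *CYP51A1*, *ABCA1*, and *MYLIP* most, with as few as 37, 81, and 145 reads in a library.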
